A study of Solanum lycopersicum with 12 samples.

Results

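Solyc06g076140 is a tomato gene annotated in the authors' deposited table as a metallothionein-like protein of type 2. It lies on the plus strand of chromosome 6 at 47417293 to 47418368, in the coordinates of that table, whose genome build is not given in the sources used here. It is 1 gene of the 24215 in the table, and it was chosen on its measured values, because its transcript was very high in the fruits of a yellow tomato and low in those of a red one at both stages sampled. It was set beside the other 2 rows whose description contains the word metallothionein, both on chromosome 4.

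The fruits came from the yellow tomato No. 19 and the red tomato No. 20 (Solanum lycopersicum per the labels), which the series describes as closely related. They were taken 40 days after anthesis, the opening of the flower, at color break, when green fruit begins to turn, and 55 days after anthesis, at maturity. Each of the 4 groups (yellow at color break, yellow at maturity, red at color break and red at maturity) held 3 libraries of poly(A)-selected RNA, and no treatment or transgene is named. The labels give neither the part of the fruit, nor whether seeds were removed, nor whether the replicates are different plants. The p-values therefore cover the spread between libraries alone, and that spread may be technical.

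Metallothioneins are small proteins rich in cysteine, whose sulfur atoms bind metal ions such as zinc and copper. In plants they are grouped into types by the spacing of their cysteines, and they take part in holding and moving metals within cells and in limiting oxidative damage. Their transcripts are often among the abundant ones in fruit, leaves and seeds.

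Total counts per library ran from 50963462 to 60854667. A gene was tested if its FPKM (fragment counts scaled to gene length and sequencing depth, as deposited) was at least 1 in at least 3 libraries, which 15974 genes met. All 4 markers of ripening fruit were detected in every library. Among them, PSY1, the phytoene synthase of ripening fruit, ran from 1374 to 2827 FPKM, and the MADS-box ripening factor Solyc05g012020 (MADS-rin) from 229 to 293 FPKM. PG2, the fruit polygalacturonase that breaks down pectin, held 5607 ± 57 FPKM (SD, n = 3) in yellow and 591 ± 34.6 in red at maturity (log2 fold change -3.38 ± 0.05, edgeR adjusted p = 5.39e-15), the called member of these 4, and stood at -0.01 ± 0.04 at color break. In red at maturity replicate 1 stood apart from the others. The chi-square per degree of freedom between libraries was 34.7 and 32.9 for its pairs and 12.4 for the other pair, against 5.36 to 8.65 in the other groups. Results that rest on that library are given with and without it.

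In yellow fruit at color break the 3 libraries held 536, 495 and 462 FPKM of Solyc06g076140, from 24196, 19223 and 21391 counts. In red fruit of the same age they held 17.6, 17.5 and 23.4 FPKM, from 797, 794 and 930 counts. Every yellow library was far above every red one. At maturity the yellow libraries held 579, 530 and 552 FPKM, from 26782, 23609 and 21411 counts. The red libraries at maturity held 46.7, 23.0 and 17.2 FPKM, from 1873, 955 and 732 counts, so replicate 1 was higher than the other two, and the lines again did not overlap. The lowest library still held 732 counts.

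The transcript was therefore detected in both tomatoes but at very different places in the order of expression. By FPKM it ranked between 78 and 92 from the top in the 6 yellow libraries. In the red libraries it ranked between 2037 and 5571. The fitted log2 fold change of red against yellow was -4.68 ± 0.28 (SE) at color break, 25.6-fold, and -4.39 ± 0.28 at maturity, 21-fold. Without replicate 1 of red at maturity the latter was -4.93 ± 0.12. These differences chose the gene and are given as a description, with no test. Across all tested genes, 2.08% were called lower in red at color break and 7.89% at maturity, where a call means an edgeR adjusted p under 0.05 together with a change of at least 1 on the log2 scale in either direction. Of the 816 tested genes with a mean of at least 100 FPKM in yellow at color break, Solyc06g076140 had the second lowest ratio of red to yellow, after Solyc03g031870. It also ranked 2 among the 850 such genes at maturity. Among all 15974 tested genes, most of them at lower levels, it ranked 26 and 150. The level in yellow and the ratio both belong to the values the gene was chosen on, so these ranks are a description alone.

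**Figure D1:**
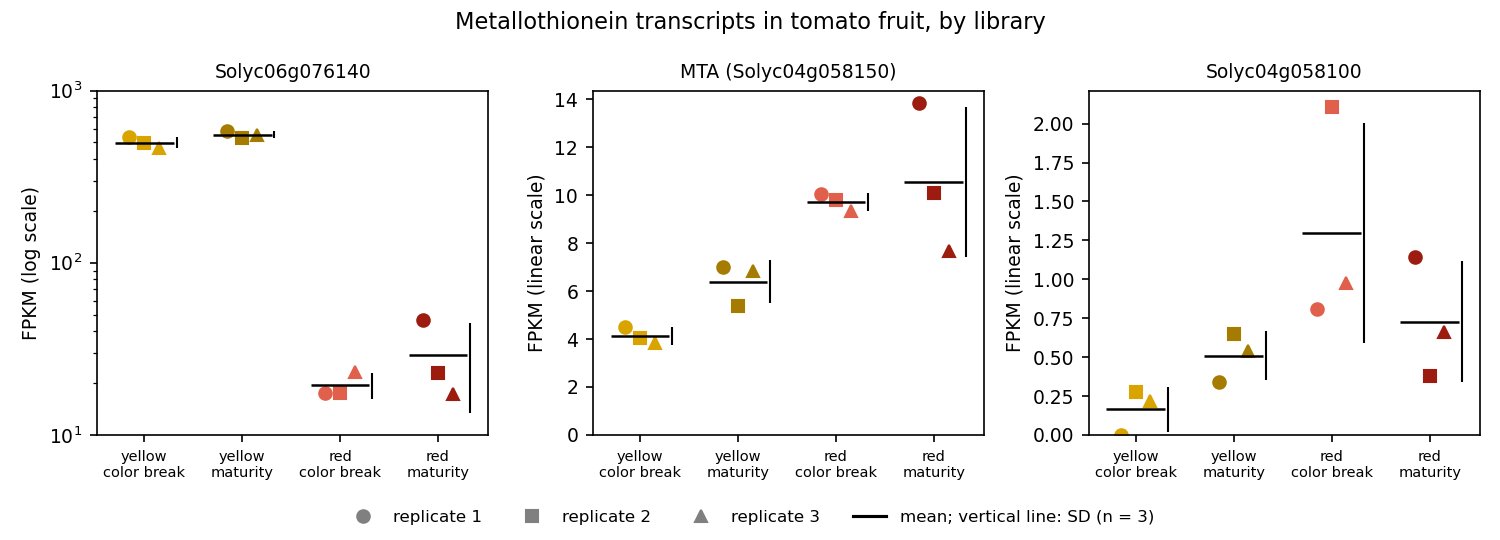
FPKM of Solyc06g076140 (log axis), MTA and Solyc04g058100 (linear axes) in each of the 12 libraries, with the group mean (horizontal line) and SD (vertical line, n = 3). Solyc06g076140 lies at 462 to 579 FPKM in every yellow library and at 17.2 to 46.7 in every red one, while both chromosome 4 genes stay under 14 FPKM and have higher means in red. At maturity the libraries of Solyc04g058100 overlap between the lines, and replicate 1 of red is the highest.

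The change between the stages, which played no part in the choice, was not called in either tomato. In yellow its mean was 498 ± 36.9 FPKM (SD, n = 3) at color break and 554 ± 24.9 at maturity, with overlapping libraries. The log2 change was 0.13 ± 0.23 (95% interval -0.37 to 0.64, edgeR adjusted p = 0.694). That SE rests on a spread shared by all groups, red at maturity included, where replicate 1 stood apart. In a fit of the yellow groups alone the change was also 0.13 (edgeR adjusted p = 0.0383), under the minimum change of 1. In red the means were 19.5 ± 3.35 and 29.0 ± 15.6 FPKM, and the log2 change was 0.42 ± 0.27 (-0.16 to 1, adjusted p = 0.187, edgeR). Across all tested genes 6.35% were called between the stages in yellow (1.47% higher and 4.88% lower at maturity) and 15.5% in red (3.93% higher and 11.5% lower). The red interval reaches a change of 1, so the data do not show an unchanged level there.

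The red stage change depended on single libraries of red at maturity. Without replicate 1 it was -0.12 ± 0.13 (edgeR adjusted p = 0.404), and without replicate 3 it was 0.69 ± 0.22 (edgeR adjusted p = 0.0177), below the minimum change of 1. The red stage change minus the yellow one was 0.29 ± 0.36 (-0.48 to 1.05, edgeR adjusted p = 0.538), and -0.26 ± 0.15 (edgeR adjusted p = 0.17) without replicate 1 of red at maturity. Across all tested genes 12.2% were called in this comparison. From the highest, the order of the group means was thus yellow at maturity, yellow at color break, red at maturity and red at color break. The stage change within each tomato was not called, which does not show that its level was unchanged. The step from yellow to red is the one the choice rests on, and it was not tested.

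A second gene covers the same stretch of the chromosome. Solyc06g076150, described as subunit C of eukaryotic translation initiation factor 3 (eIF3), the complex that helps load the small ribosomal subunit with mRNA, runs on the minus strand from 47417212 to 47422992. All 1076 bases of Solyc06g076140 lie within that span. The libraries were strand-marked, but whether the counting used strand is not given in the sources used here. If it did not, reads from the overlapping genes cannot be told apart.

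The eIF3 gene was also lower in red. At color break the yellow libraries held 37.1, 37.3 and 38.5 FPKM and the red ones 18.2, 18.3 and 17.1. The fall in red was called, at -1.07 ± 0.04 (edgeR adjusted p = 2.4e-10). At maturity the yellow libraries held 37.0, 39.7 and 39.9 FPKM and the red ones 22.8, 24.8 and 25.1, with a log2 fold change of -0.82 ± 0.04 (edgeR adjusted p = 1.57e-09), under the minimum change. In red at maturity its lowest library was replicate 1, the library in which Solyc06g076140 was highest. Looked up after these values were seen, the other 9 genes described as eIF3 subunits had log2 fold changes of -0.09 to 0.20 at color break and -0.21 to 0.02 at maturity, with 0 called by edgeR, against 6.20% and 11.1% of all tested genes. For all 10 of them, an unadjusted p under 0.05 was reached by 4 at color break and 6 at maturity. It was reached by 7762 and 9847 of all 15974 tested genes. How far reads of one gene of the overlapping pair entered the value of the other was not tested.

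**Figure D2:**
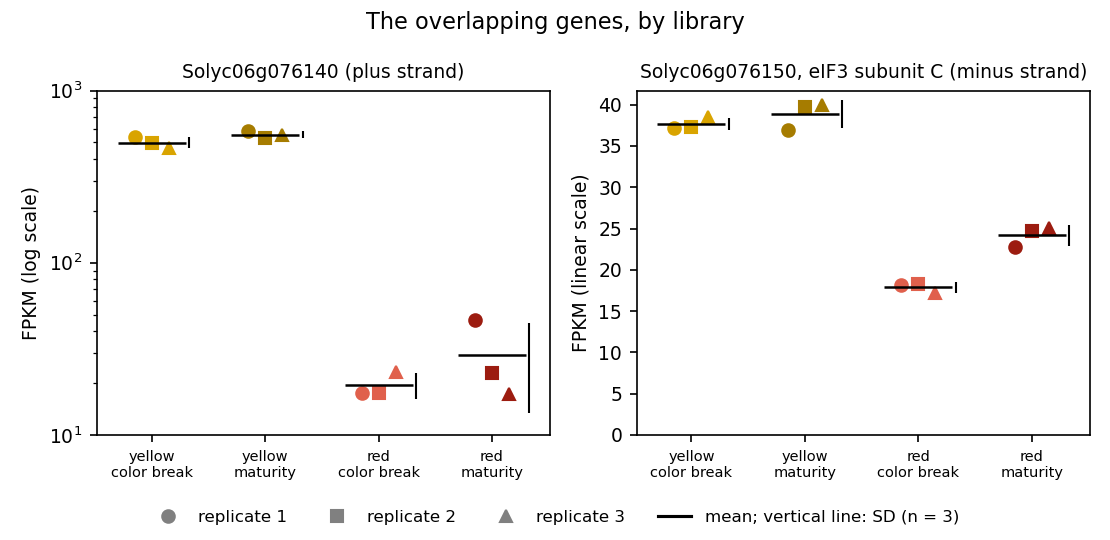
FPKM of Solyc06g076140 (left, log axis) and of the gene on the opposite strand that contains it, Solyc06g076150 (right, linear axis), in the 12 libraries, with group mean (horizontal line) and SD (vertical line, n = 3). Both are lower in red at each stage, Solyc06g076140 by 25.6-fold and 21-fold and Solyc06g076150 by 2.11-fold and 1.77-fold.

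Neither of the other metallothionein rows shared the pattern. MTA (Solyc04g058150, chromosome 4, plus strand, 55185933 to 55187115), described as a metallothionein-like protein, held 4.51, 4.05 and 3.82 FPKM in yellow at color break and 10.04, 9.80 and 9.32 FPKM in red. It was higher in red in every library, and the rise of 1.23 ± 0.19 (2.35-fold) was called (edgeR adjusted p = 0.000124). Across all tested genes, 4.12% were called higher in red at color break.

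At maturity MTA held 6.98, 5.37 and 6.83 FPKM in yellow and 13.9, 10.1 and 7.66 FPKM in red. The groups did not overlap, but the log2 fold change of 0.58 ± 0.18 (edgeR adjusted p = 0.0133) was under the minimum, and 11.1% of all tested genes were called at this stage. Without replicate 1 of red at maturity it was 0.32 ± 0.14 (edgeR adjusted p = 0.0649). Between the stages the log2 change of MTA was 0.61 ± 0.19 in yellow (edgeR adjusted p = 0.0195) and -0.04 ± 0.18 in red (-0.42 to 0.34, edgeR adjusted p = 0.857), neither of which was called. The difference of these stage changes was -0.65 ± 0.26 (edgeR adjusted p = 0.0541).

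Solyc04g058100 (chromosome 4, plus strand, 55154558 to 55155327), also described as type 2, starts 31.4 kb from MTA and was barely detected. At color break its libraries held 0, 9 and 8 counts in yellow and 28, 73 and 30 in red. The later yellow libraries held 12, 23 and 16 counts, and the red ones 35, 12 and 22. It reached 1 FPKM in too few libraries to be tested. When all detected genes entered the fit, it was higher in red at color break (2.88 ± 0.77, edgeR adjusted p = 0.0113), and at maturity the value was 0.36 ± 0.70 (edgeR adjusted p = 0.763).

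Per length, Solyc06g076140 made up nearly all of the summed FPKM of the 3 rows described as metallothioneins in yellow fruit. Its share of their summed FPKM was 98.7% to 99.2% in the 6 yellow libraries. In the red libraries it was 59.6% to 75.7%. The sum of the 3 rows ran from 466 to 587 FPKM in yellow and from 25.6 to 61.7 FPKM in red, so the higher MTA level in red did not make up the difference. These shares leave out any metallothionein among the rows without a description, since 4835 of the 24215 rows have one. RefSeq's gene table lists LEMT1, a metallothionein gene that could not be paired with a row here. Similarity between the 3 transcripts was not measured here, and reads could be shared between similar members of the family.

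The table gives Solyc06g076140 a single GO term, metal ion binding, and 78 rows carry that term alone. One of them, picked after its values were seen, was far more abundant than the described metallothioneins. Solyc09g010800 (chromosome 9, plus strand, 4094974 to 4096922) has no description in the table. RefSeq places LEMT1 on the same chromosome, and whether they are the same gene was not established. Solyc09g010800 held 2509 to 2569 FPKM in yellow and 2846 to 3082 FPKM in red at color break. At maturity it held 2606 to 2771 FPKM in yellow and 3513, 2505 and 2463 FPKM in red. Its log2 fold change of red against yellow was 0.22 ± 0.11 at color break (-0.01 to 0.45, edgeR adjusted p = 0.124) and -0.07 ± 0.11 at maturity (-0.30 to 0.16, edgeR adjusted p = 0.62). The intervals exclude a fold change of the size seen for Solyc06g076140. Replicate 1 of red at maturity was the highest library of that group for this gene, for MTA, for Solyc04g058100 and for Solyc06g076140 alike. Of the 63 such rows that were tested, Solyc06g076140 included, 3 were higher and 3 lower in red at color break (9.52% called, against 6.20% of all tested genes). At maturity 1 was higher and 7 were lower (12.7% called, against 11.1% of all tested genes). Solyc06g076140 is among the lower rows at both stages, as it was chosen to be, and MTA among the higher ones at color break. The shares are therefore not read as an excess.

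The genes around Solyc06g076140 did not show a line difference of its size. Of the 10 rows on each side of it, 15 were tested, with starts from -86.2 to 110.0 kb relative to its own. At color break 0 were higher and 2 lower in red (13.3% called, against 6.20% of all tested genes), with a median log2 fold change of -0.31 against 0.00 over all. The called genes were Solyc06g076150 and Solyc06g076210, a gene without description 80.7 kb away. The latter held 6.17 ± 0.427 FPKM in yellow and 1.51 ± 0.154 in red (-2.03 ± 0.11, edgeR adjusted p = 7.53e-09).

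At maturity 0 of the 15 neighbours were higher and 2 were lower in red, against 3.26% and 7.89% of all tested genes, with a median of -0.28. These were Solyc06g076020, at 5.10 ± 0.359 FPKM in yellow and 2.44 ± 0.0973 in red (-1.20 ± 0.10, edgeR adjusted p = 1.92e-07), and Solyc06g076260, at 1.26 ± 0.0674 and 0.508 ± 0.361 FPKM (-1.44 ± 0.41, edgeR adjusted p = 0.00835). Neither has a description. Without replicate 1 of red at maturity Solyc06g076260 was at -2.18 ± 0.36. Apart from the overlapping gene, the tested genes nearest in start were Solyc06g076160 and Solyc06g076170 after it and Solyc06g076110 before it. Their line differences were -0.54 to 0.16 at the 2 stages, with none called. Below the minimum change, Solyc06g076160 (-0.50 ± 0.12) and Solyc06g076170 (-0.54 ± 0.14) were lower in red at maturity (edgeR adjusted p = 0.00285 and 0.00559). At that stage 9124 of all 15974 tested genes had an adjusted p under 0.05. Over chromosome 6 as a whole, looked up later, 59 of 1411 tested genes were higher and 35 lower in red at color break (6.66% called), and 51 were higher and 119 lower at maturity.

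**Figure D3:**
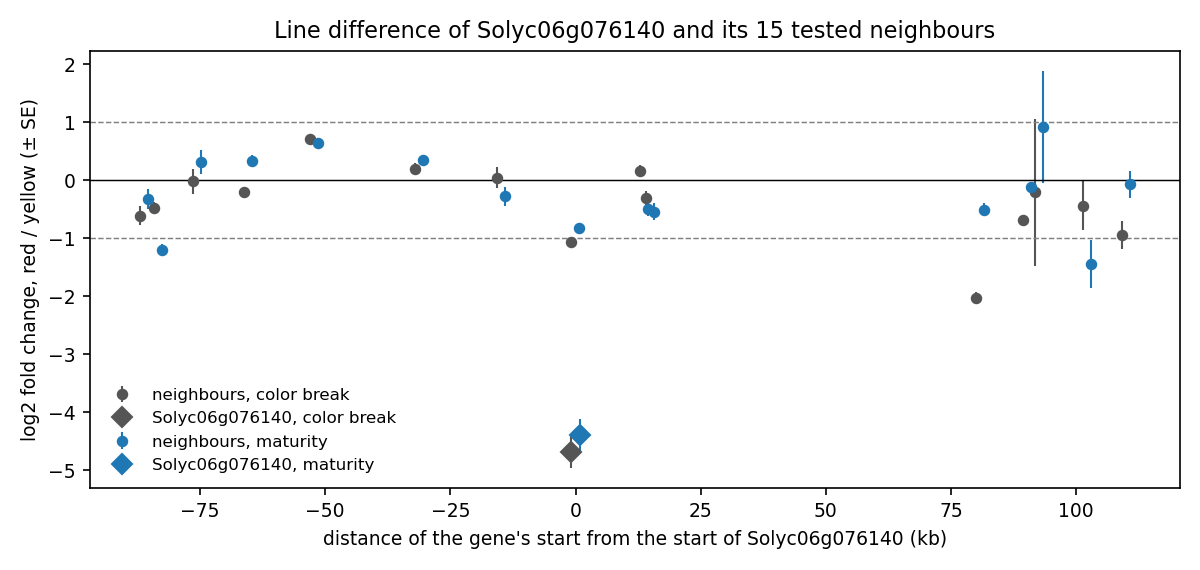
Log2 fold change of red against yellow (± SE) for Solyc06g076140 (diamonds) and its 15 tested neighbours (circles) at color break and maturity, by the distance of each gene's start from that of Solyc06g076140 in kb; dashed lines mark the minimum change of 1. Solyc06g076140 lies at -4.68 and -4.39, and the lowest neighbour at -2.03.

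Other genes that take up, carry, store or use metals were compared by description, with metallothioneins left out. Of 31 such rows 26 were tested. At color break an edgeR adjusted p under 0.05 was reached by 11 of the 26 and by 6632 of all 15974 tested genes. For an unadjusted p these counts were 12 and 7762. The log2 fold changes of the 26 ran from -0.70 to 0.85 with a median of 0.00. Of them 0 were called by edgeR (6.20% of all tested genes). DESeq2 and limma also called 0. At maturity 0 were higher and 3 lower in red, 11.5% called against 11.1% of all tested genes, with a median of -0.26.

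The largest falls in red at maturity were in Solyc04g008060, described as a vacuolar iron transporter, which stores iron in the vacuole (-1.71 ± 0.32, edgeR adjusted p = 0.000468), and in PETE (Solyc04g082010). PETE encodes plastocyanin, the copper protein that carries electrons in photosynthesis, and held 58.4 ± 0.428 FPKM in yellow and 21.7 ± 3.36 in red (-1.57 ± 0.09, edgeR adjusted p = 4.35e-09). The third, Solyc08g061610, described as the chloroplast copper pump PAA2, was low in both lines at this stage, at 0.771 ± 0.109 and 0.289 ± 0.0666 FPKM, and is named because the count is small.

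Below the minimum change, 4 metal genes had an adjusted p under 0.05 and a lower level in red at both stages, 0 had a higher level at both, and 2 had opposite signs. Of the 26, 11 were under that adjusted p at color break and 20 at maturity, as were 6632 and 9124 of all 15974 tested genes. How many of all genes passed at both stages was not counted, so the 4 are not read as a shift of the list. A ferritin gene, Solyc06g050980, which encodes a shell that stores iron, held 127 ± 2.8 FPKM at color break in yellow against 80.4 ± 0.739 in red. At maturity it held 126 ± 1.97 and 78.9 ± 1.54 FPKM. Its log2 fold changes were -0.66 ± 0.04 and -0.81 ± 0.04 (edgeR adjusted p = 7.33e-09 and 4.59e-10). A superoxide dismutase gene, Solyc06g049080, whose product removes superoxide with the help of a metal, stood at -0.67 ± 0.05 and -0.73 ± 0.05. The other 2 of these genes were Solyc11g007200 (-0.70 and -0.48) and Solyc01g099600 (-0.33 and -0.76). None of the 4 was called. The other ferritin gene, Solyc05g052470, stood at 0.06 and 0.43.

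Between the stages, in yellow 0 of 26 were called by edgeR (6.35% of all tested genes), and DESeq2 and limma again called 0. An unadjusted edgeR p under 0.05 was reached by 12 of them and by 7626 of all 15974 tested genes. In red 1 rose and 4 fell (19.2%, against 15.5% of all tested genes). Solyc08g061610 fell from 1.91 ± 0.113 to 0.289 ± 0.0666 FPKM (-2.87 ± 0.18, edgeR adjusted p = 8.09e-09), Solyc04g008060 by 1.62 ± 0.32 and PETE by 1.51 ± 0.09 on the log2 scale. The other calls, named because the count is small, were the Cu-Zn superoxide dismutase gene Solyc11g066390 (-1.14 ± 0.05) and Solyc07g009130, described as a putative inactive cadmium/zinc-transporting ATPase HMA3 (1.40 ± 0.08). Of the 26, 0 had a higher and 3 a lower stage change in red than in yellow, against 3.00% and 9.23% of all tested genes. In these 3, Solyc08g061610, Solyc04g008060 and PETE, the red change minus the yellow one was -2.39 ± 0.24, -1.96 ± 0.44 and -1.05 ± 0.12 (edgeR adjusted p = 2.99e-06, 0.00238 and 8.89e-06). Solyc06g076140 had no such call.

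**Figure D4:**
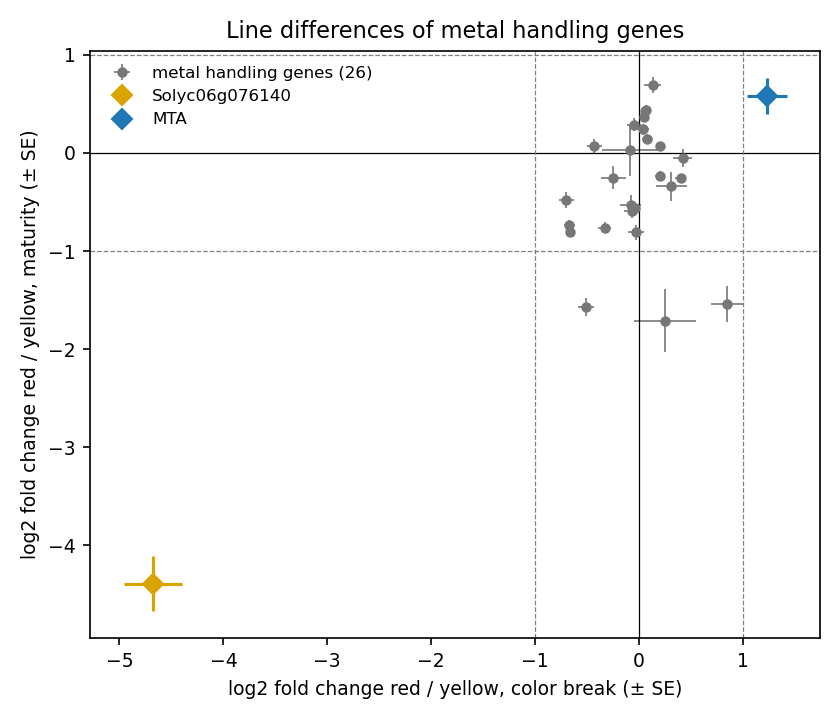
Log2 fold change of red against yellow at color break (horizontal, ± SE) and maturity (vertical, ± SE) for the 26 tested metal handling genes (circles), Solyc06g076140 and MTA (diamonds); dashed lines mark the minimum change of 1. Solyc06g076140 lies alone at -4.68 and -4.39, MTA at 1.23 and 0.58, and the other genes between -0.70 and 0.85 at color break.

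Genes with a like pattern were sought among the other 15973 tested genes by 2 measures on log2(FPKM + 1). The first was the Pearson correlation over the 12 libraries, which share the 2 lines and 2 stages and are not independent draws; 66 genes had an r above 0.95. The 5 highest were Solyc09g092540 (0.992), Solyc06g082120 (0.989), the ferritin gene Solyc06g050980 (0.988), Solyc12g070080 (0.986) and Solyc09g090610 (0.986). Apart from the ferritin gene none has a description. A high r says nothing of size: Solyc06g082120 held 72.9 ± 1.08 FPKM at color break in yellow against 57.1 ± 0.312 in red, a small step beside that of Solyc06g076140.

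The second measure, the Euclidean distance between the 4 centred group means, also weighs size. The nearest genes were Solyc03g031870 (distance 1.73), Solyc09g092540 (1.84), Solyc06g050315 (2.105), Solyc05g016720 (2.12) and Solyc06g051360 (2.25), all without description. Solyc03g031870 (chromosome 3, 4360604 to 4363707) was the most abundant of the 5 in yellow, at 115 ± 5.92 FPKM in yellow against 1.91 ± 0.112 in red fruit of 40 days. At maturity it held 136 ± 9.65 FPKM in yellow, while the red libraries ran from 0 to 2.51 FPKM. Solyc09g092540, named by both measures, held 6.05 ± 0.27 FPKM at color break in yellow, and from 0 to 0.105 FPKM in red. These levels are below those of Solyc06g076140 in both lines. Since the genes of both measures were picked for their likeness, their line differences carry no test here. The p-values given above for the ferritin gene belong to the metal list and are no support for its likeness.

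**Figure D5:**
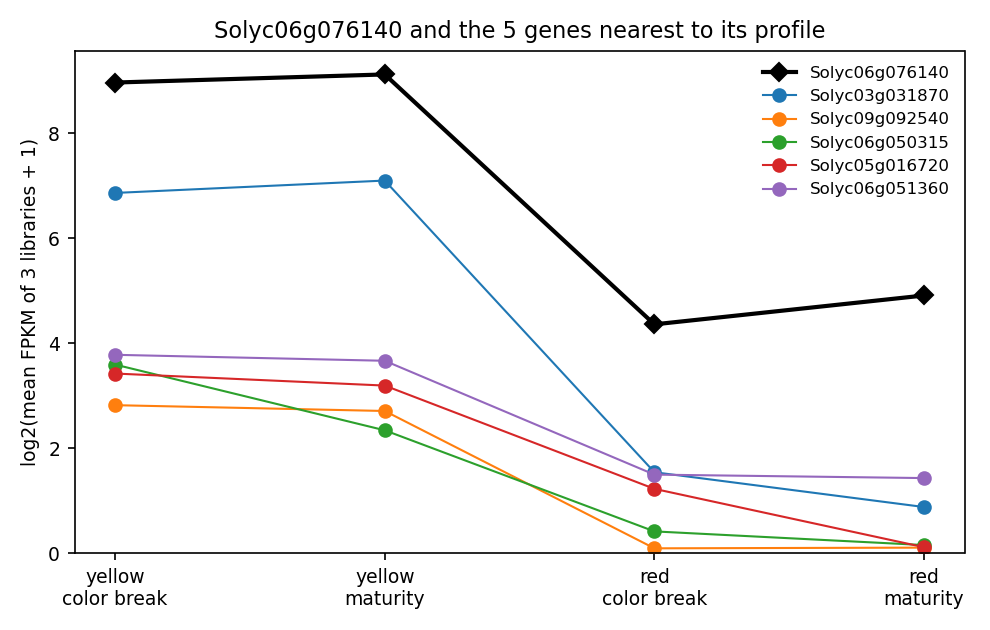
Group means of 3 libraries, as log2(FPKM + 1), of Solyc06g076140 (black diamonds) and of the 5 genes whose centred profile lies nearest to it, over the 4 groups. All 6 are higher in both yellow groups than in both red ones, and Solyc06g076140 has the highest level in each group.

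Markers of seed and of green tissue did not follow the line difference of Solyc06g076140 at both stages. In these bulk samples fewer cells of a type and less RNA per cell cannot be told apart. The 7 rows described as oleosins or late embryogenesis proteins, none at 0 counts in all 3 libraries of a group, summed to 649 to 704 FPKM in yellow and 1008 to 1065 in red at color break. They summed to 246 to 261 FPKM in yellow and 180 to 209 in red at maturity, most of it from Solyc01g095150, at 156 ± 3.46 and 180 ± 5.96 FPKM. The other 6 rows summed to 91.8 to 100.5 FPKM in yellow at maturity, against 22.0, 3.017 and 3.796 FPKM in red, so replicate 1 held the most of the red libraries. The oleosin genes Solyc02g086490 and Solyc06g034040 had 75 and 149 counts in that library and 0 in both others. Of 6 tested, 0 were called at color break by edgeR (6.20% of all tested genes). There 4 had an unadjusted p under 0.05, as did 7762 of all 15974 tested genes. At maturity 4 were called lower in red, when 7.89% of all tested genes were. The 13 chlorophyll-binding rows summed to 80.4 to 84.7 FPKM in yellow and 125 to 131 in red at color break, and to 69.4 to 71.1 and 39.6 to 52.0 FPKM at maturity. Of 8 tested, 4 were higher in red at color break, against 4.12% of all tested genes, and 4 were lower at maturity, against 7.89%. Of the 13, 1 was at 0 counts throughout yellow at color break and 3 in each group at maturity. In red at maturity replicate 1 held the highest sum of both lists, as it did the highest level of Solyc06g076140. The part of these tissues in that library's level was not tested.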

How the data were processed

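Fruit mRNA of 12 libraries in 4 groups was analysed from 1 table. Per the submitters' processing notes the tools included StringTie 2.1.6, HISAT2 2.2.1, cutadapt 1.9, edgeR and DESeq2, with no order named. For the build, the annotation and strand use in counting, nothing is given in the sources used here. The table deposited by the authors holds whole-number read counts per gene and, in separate columns, FPKM values made by the authors.

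The counts were tested with edgeR 4.0.16 (R 4.3.3; TMM scaling, glmQLFit and glmQLFTest, two-sided) in 1 fit of all 12 libraries with a mean per group, for genes of at least 1 FPKM in at least 3 libraries. P-values were adjusted by Benjamini and Hochberg over all 15974 genes. The common coefficient of variation between replicates was 0.0869. The code was checked on simulated data. No replicate pair agreed within sampling noise, so each library was counted once. Alternatives were DESeq2 1.42.0, limma 3.58.1 on log2(FPKM + 1) and log2(FPKM + 0.1), RLE factors, no filter, the 2 groups alone, a replicate block, and leaving out each library.

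The gene, the lists and the rule for named genes were chosen with earlier results of these data known. Named genes were Solyc06g076140, the other metallothioneins, up to 3 called metal genes per comparison, called neighbours and the 5 most alike by each measure. The markers of ripening fruit and the description rules for seed and green tissue were set with these. All other genes named were added after their values were seen. They include the eIF3 subunits, Solyc09g010800, the genes sharing its GO term and the single seed genes named.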

Additional observations from a re-analysis of the deposited data

Results flagged for a closer look

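In 6 of the genes named above, the seed genes left out, the change from color break to maturity differed between the tomatoes. This rests on the test of the difference itself (red minus yellow, log2 scale, edgeR). For Solyc08g061610, described as the copper pump PAA2, the difference was -2.39 (adjusted p = 2.99e-06). For Solyc04g008060, the vacuolar iron transporter gene, it was -1.96 (adjusted p = 0.00238). For PETE (Solyc04g082010), the plastocyanin gene, it was -1.05 (adjusted p = 8.89e-06). For PG2 (Solyc10g080210), the polygalacturonase gene, it was -3.37 (adjusted p = 1.61e-13). For Solyc05g016720, a gene without description that was picked for the likeness of its group means to those of Solyc06g076140, it was -3.71 (adjusted p = 0.00145). Red libraries of Solyc05g016720 held 0.627 to 2.08 FPKM at color break and 0 to 0.245 FPKM at maturity, so that value rests on very low levels. For Solyc06g076210, a neighbour of Solyc06g076140 without description, the difference was 1.51 (adjusted p = 3.27e-06), with line differences of -2.03 at color break and -0.51 at maturity. Of the seed genes named above, the oleosin gene Solyc06g034040 was also called, at -4.71 (adjusted p = 6.31e-05). Its red libraries at maturity held 0 counts apart from replicate 1. Across all tested genes, 12.2% were called in this comparison.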

How the results depend on the processing

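The line differences of Solyc06g076140 stayed between -4.83 and -4.60 at color break and between -4.93 and -4.12 at maturity when any 1 of the 12 libraries was left out. Its stage change ran from 0.08 to 0.19 in yellow and from -0.12 to 0.69 in red, and the difference of stage changes from -0.26 to 0.56. The values below 0, -0.12 and -0.26, came without replicate 1 of red at maturity. In the fit of the yellow groups alone the yellow stage change was 0.13 (edgeR adjusted p = 0.0383), still under the minimum change. With no filter on low values 2 other metallothioneins were called at color break, in place of 1. With limma on log2(FPKM + 1), the metal genes called were 1 in place of 3 in red against yellow at maturity and 3 in place of 5 in red between the stages, and 0 neighbours in place of 2 were called at maturity. That scale understates changes of low genes. It called 519 genes in all in place of 991 at color break, 942 in place of 1781 at maturity, 563 in place of 1015 between the stages in yellow, and 1205 in place of 1954 for the difference of stage changes. On the deposited FPKM scale the median over all tested genes was 0.12 in red against yellow at maturity and 0.14 in red between the stages. The limma fits on log2(FPKM + 1) made 39.1% of the calls at maturity higher in red, in place of 29.3%. Leaving out 1 library, neighbours called at color break ranged from 2 to 3, and the counts of called metal genes and other metallothioneins in the 4 comparisons of 2 groups did not move. The counts of the other lists were not recomputed. The replicate numbers of the labels are shared by the groups, but same-numbered libraries deviated together by correlations of only -0.092 to 0.085, and a library correlated best with its own number in 14 of 36 cases. With the replicate block the stage changes were 0.14 in yellow and 0.36 in red, their difference was 0.22, and 983 genes were called at color break in place of 991. Counts of 732 to 26782 limit Solyc06g076140 less than the spread between libraries does, whereas Solyc04g058100, at 0 to 73 counts, is limited by depth.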
